A study of Rattus norvegicus with 10 samples.

Results

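The genes described here encode Wnt ligands, their receptors and secreted antagonists, and the proteins that carry the signal into the cell. They were chosen by symbol: Wnt, Fzd, Sfrp, Dkk, Axin, Dvl, Rspo and Tcf7 genes together with Lrp5, Lrp6, Lef1, Lgr4 to Lgr6, Wif1, Porcn and Znrf3. The deposited table held 52 of these among its 17274 gene symbols. The exposed animals were adult male Wistar rats born to dams fed BDE-47, a brominated diphenyl ether flame retardant, at 0.2 mg/kg body weight per day in tocopherol-stripped corn oil. Offspring of dams fed that oil alone were the vehicle group. Dosing ran from pregnancy day 8 to postpartum day 21 with 7 dams in each group, and the testes were taken at postnatal day 120, long after dosing had ended. Each group had 5 libraries of poly(A) RNA, but the table gives 1 FPKM value per group and locus (fragments per kilobase, corrected for library size). The spread between animals is therefore unknown, litters are not labelled, no difference could be tested, and no depth can be given. Which group a value belongs to rests on the column names. Library titles carry a C code in the BDE-47 group and an X code in the vehicle group, and every direction, share and rank given here would turn round with the columns.

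Wnt proteins are secreted, lipid-modified signals that bind a Frizzled receptor together with Lrp5 or Lrp6. Dishevelled proteins then restrain a complex built on Axin, beta-catenin escapes destruction, and it joins Tcf and Lef factors on DNA. R-spondins strengthen the signal through Lgr receptors, while Sfrp and Wif1 proteins bind the Wnts and most Dkk proteins block the co-receptors. In the mouse, Wnt4 and Rspo1 are needed for the developing ovary, and Sertoli cells, which nurse the germ cells, are a source of Wnt5a.

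At the loci used, several Wnt ligands, Fzd1, Lgr4, Dkk3 and Sfrp1 were higher in the BDE-47 testes, whereas Lef1 was lower. In whole testis, fewer cells of a type and less RNA per cell cannot be told apart. Of the 52 genes, 31 averaged 1 FPKM or more across the groups and were compared. Higher or lower means a difference of 2-fold or more after adding 1 FPKM to both values and taking log2; this describes size and tests nothing. By this rule 11 genes were higher (35.5% of those compared), 1 was lower (3.23%) and 19 lay within 2-fold. Over all 11567 genes compared in the table, 30.1% were higher and 3.6% were lower, so the shares among the Wnt pathway genes were close to this background. The median difference was 0.57 over the 31 genes, with quartiles of -0.21 and 1.42, and 0.45 over all genes. The 11 higher genes were Wnt4, Wnt5b, Wnt6, Wnt11, Fzd1, Fzd2, Lrp6, Lgr4, Dkk3, Dkk4 and Sfrp1. Of these, Wnt4, Wnt11, Fzd1 and Sfrp1 were under 1 FPKM in vehicle testes and were compared only because of their BDE-47 values.

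The balance of higher and lower genes depended on how the groups were scaled. As deposited, 91.7% of the Wnt pathway genes past 2-fold were higher, against 89.3% of all genes past 2-fold. Scaling the median ratio of all compared genes to 1, which removed a shift of 0.52 log2 units toward BDE-47, gave 8 higher and 6 lower Wnt pathway genes, or 57.1% higher. Under this scaling 19.3% of all compared genes were higher and 14.5% lower. Scaling over all loci in place of genes gave 8 higher and 8 lower (14.9% and 21.7% of all genes), quantile normalization 8 and 5 (19.6% and 9.6%), and rescaling without the most abundant loci 10 and 2 (25.4% and 7.1%). Scaling to a common median centres the ratios by construction and cannot show which balance is the true one. Across the deposited values and 4 rescalings, 8 genes were at least 2-fold higher every time at the loci used: Wnt4, Wnt5b, Wnt6, Wnt11, Fzd1, Lgr4, Dkk3 and Sfrp1. How many of all genes passed every scaling was not counted, so this number has no background beside it. Only Lef1 of the 31 was at least 2-fold lower in all 5, at the locus used. As deposited, its other locus (-0.59) and the sum of its loci (-0.98) were within 2-fold.

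**Figure D1:**
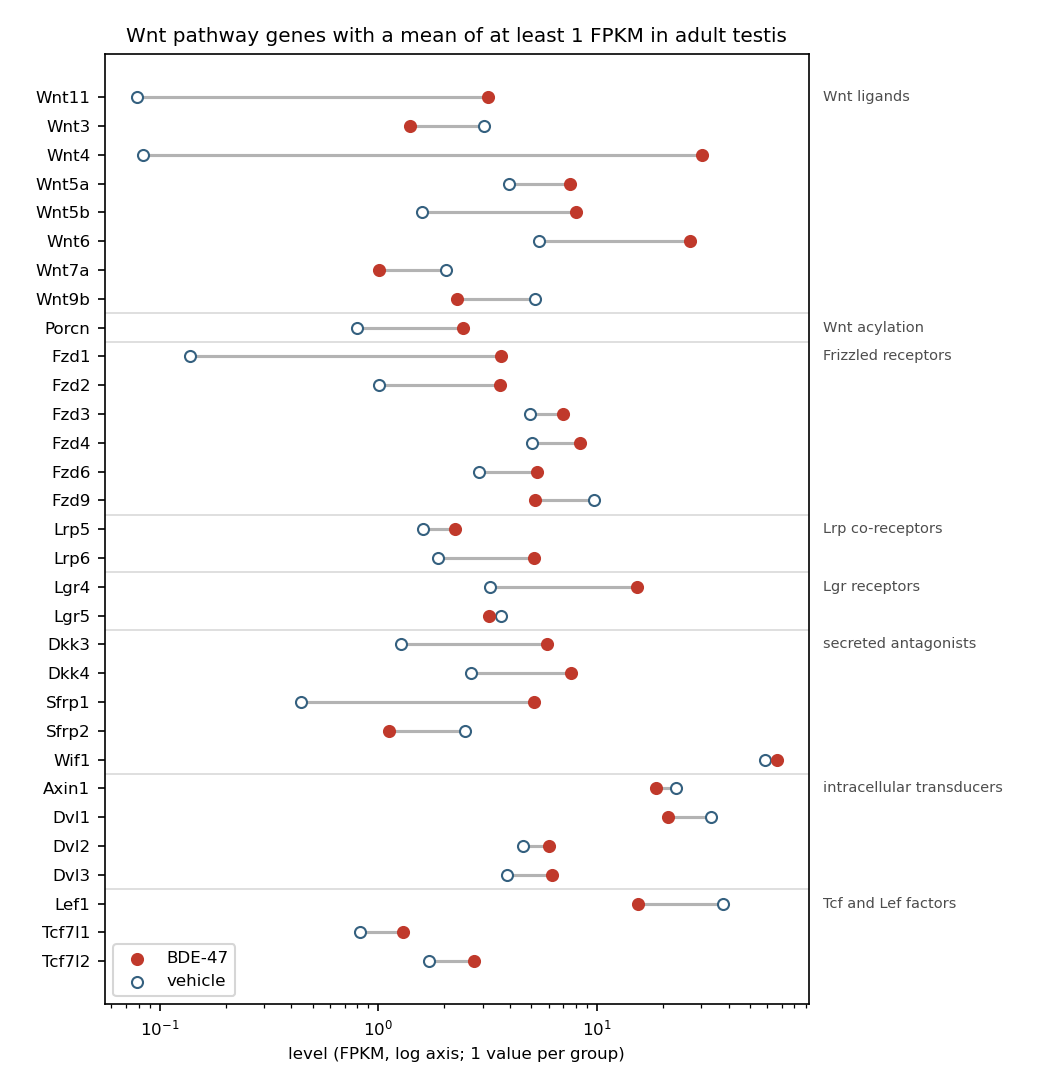
Levels of the 31 compared genes, grouped by role, with 1 value per group on a log axis (filled points BDE-47, open points vehicle). Wnt4 spans the widest distance, with 30.3 FPKM in BDE-47 and 0.0836 FPKM in vehicle testes, while Wif1 has the highest level in both groups.

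Markers of several testis cell types differed in the same table. Of 12 spermatid markers 7 were lower and none higher, with a summed level of 33179 FPKM in BDE-47 and 81720 FPKM in vehicle testes. All 9 Leydig cell markers were higher, summing to 1715 FPKM in BDE-47 and 157 FPKM in vehicle, as were 12 of 14 Sertoli markers (2788 FPKM in BDE-47 and 630 FPKM in vehicle), 9 of 10 macrophage markers (439 FPKM in BDE-47 and 34.3 FPKM in vehicle) and all 7 fibroblast markers compared (172 FPKM in BDE-47 and 14.2 FPKM in vehicle). Peritubular muscle markers were higher for 5 of 8 (309.9 FPKM in BDE-47 and 109 FPKM in vehicle), and endothelial markers for 2 of 6 (151 FPKM in BDE-47 and 95.4 FPKM in vehicle). Most of the endothelial sum came from 1 merged locus of Tek and Eqtn, a sperm acrosome gene, at 133 FPKM in BDE-47 and 88.0 FPKM in vehicle. Much of the Leydig sum came from the merged locus of Insl3 and Jak3, at 904 FPKM in BDE-47 and 71.0 FPKM in vehicle. The markers Hsd3b1, Hormad1, Spo11 and Gapdhs also stood in merged loci. Most of the spermatid sum came from Prm1 and Tnp1, the latter at 7434 FPKM in BDE-47 and 18179 FPKM in vehicle. The other 5 of the 12 spermatid markers were within 2-fold. Much of the Sertoli sum came from Clu, at 1520 FPKM in BDE-47 and 267 FPKM in vehicle. The sums run over all markers in the table, compared or not. Spermatogonial markers were higher for 2 of 6 (219.97 FPKM in BDE-47 and 127 FPKM in vehicle) and spermatocyte markers for 3 of 9 (1634 FPKM in BDE-47 and 1337 FPKM in vehicle) with none lower as deposited, shares near the 30.1% of all genes. After median-of-ratios scaling over compared genes, 9 spermatid markers and 1 spermatocyte marker were lower, and 9 Leydig, 9 Sertoli, 8 macrophage, 7 fibroblast, 4 peritubular, 1 endothelial and 1 spermatogonial marker were higher. Of the markers of all these cell types in the table, only the fibroblast gene Col1a2 was listed at 0 in both groups. The higher markers Pecam1, Lum, Tcf21, Cd68 and Cd14 were under 1 FPKM in vehicle testes and were compared only because of their BDE-47 values. The part of these cell types in the Wnt pathway values was not tested. Cyp17a1, an enzyme of androgen synthesis, was at 246 FPKM in BDE-47 and 13.3 FPKM in vehicle testes, and the macrophage lysozyme gene Lyz2 at 184 FPKM in BDE-47 and 7.31 FPKM in vehicle. Prm1, the protamine gene of late spermatids, was at 16271 FPKM in BDE-47 and 43238 FPKM in vehicle testes. The extraction text of the labels names liver, and Alb, the liver's albumin gene, was at 0.633 FPKM in BDE-47 and 0.920 FPKM in vehicle testes. Other genes of the liver list had higher levels than Alb. Serpina1 was at 662 FPKM in BDE-47 and 1479 FPKM in vehicle testes. Hp was at 142 FPKM in BDE-47 and 23.1 FPKM in vehicle, and Fgb at 6.45 FPKM in BDE-47 and 5.24 FPKM in vehicle. Of 12 liver genes, 5 were compared, 2 were higher (Hp and Cyp2e1) and 1 lower (Serpina1), and none of the 3 epididymis genes compared passed 2-fold.

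Among the ligands, 8 of 18 were compared, and 4 of these were higher and none was lower by 2-fold. Over all genes compared, 30.1% were higher and 3.6% lower. Of the 4, Wnt4 and Wnt11 were compared only because of their BDE-47 values. After median-of-ratios scaling over compared genes 4 ligands were higher and 2 lower, beside 19.3% and 14.5% of all genes. Wnt4 was listed at 30.3 FPKM in the BDE-47 group and at 0.0836 FPKM in the vehicle group. Its difference of 4.85 on the log2(FPKM + 1) scale was the sixth highest of all 11567 genes (rank 6), and the authors' deposited table gives a log2 ratio of 8.5. The Wnt4 value comes from an interval of build rn5, chromosome 5:159106399-159528921, that it shares with Zbtb40, Bc1, Cdc42 and Cela3b, and how reads were divided among them is not given. Cdc42, a small GTPase gene used by most cells, was at 161 FPKM in BDE-47 and 44.9 FPKM in vehicle testes, and the pancreatic elastase gene Cela3b at 3.53 FPKM in BDE-47 and 0.525 FPKM in vehicle. The 2 Zbtb40 loci were at 1.20 FPKM in BDE-47 and 1.96 FPKM in vehicle and at 4.32 FPKM in BDE-47 and 3.63 FPKM in vehicle, and Bc1 at 12.0 FPKM in BDE-47 and 8.75 FPKM in vehicle. The neighbours thus differed in both directions and by far less than Wnt4, and the part of the shared interval in the Wnt4 value was not tested.

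Wnt6, a ligand best known from epithelia (chromosome 9:81796068-81809700), was at 26.5 FPKM in BDE-47 and 5.43 FPKM in vehicle testes, a difference of 2.1. Wnt5b, a ligand of the branch that works without beta-catenin, was at 8.00 FPKM in BDE-47 and 1.58 FPKM in vehicle testes. Wnt11, another ligand of that branch, was at 3.18 FPKM in BDE-47 and 0.0786 FPKM in vehicle testes. At the loci used, all 3 were also at least 2-fold higher under each of the 4 rescalings. Wnt6 and Wnt11 each have a partner locus of the same name that differs the other way, given with the paired loci. Summed over its loci, as deposited, Wnt11 was within 2-fold (0.95) and Wnt6 just past it (1.09). The sums were not rescaled. Wnt5a was within 2-fold, at 7.52 FPKM in BDE-47 and 3.97 FPKM in vehicle testes.

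A smaller set of ligands had lower values in the BDE-47 group. Wnt9b, which induces kidney tubules in the mouse embryo, was at 2.28 FPKM in BDE-47 and 5.21 FPKM in vehicle testes, a difference of -0.92. Wnt3 was at 1.39 FPKM in BDE-47 and 3.05 FPKM in vehicle testes (-0.76), and Wnt7a at 1.01 FPKM in BDE-47 and 2.03 FPKM in vehicle (-0.59). The only Wnt7a locus is read as opposite-strand, a reading explained with the paired loci, so its value may not be that of the Wnt7a transcript. The authors' deposited table gives log2 ratios of -1.19 for Wnt9b, -1.13 for Wnt3 and -1.01 for Wnt7a, so these ligands passed 2-fold on the plain ratio and fell short of it only after 1 FPKM was added. After median-of-ratios scaling over the compared genes, the differences of Wnt9b and Wnt3 were -1.32 and -1.10, past 2-fold, and that of Wnt7a was -0.90.

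Some ligands lie next to each other. Wnt9b and Wnt3 lie next to each other on chromosome 10, 22.8 kb apart in the deposited coordinates, and both had lower values in BDE-47 testes. Wnt6 and Wnt10a are 6.41 kb apart on chromosome 9, and both had higher values, with Wnt10a at 1.38 FPKM in BDE-47 and 0.415 FPKM in vehicle testes. Wnt3a and Wnt9a, 20.4 kb apart on chromosome 10, had values in opposite directions at very low levels. Wnt3a was at 0.110 FPKM in BDE-47 and 0.275 FPKM in vehicle testes, and Wnt9a at 0.203 FPKM in BDE-47 and 0.0242 FPKM in vehicle. Wnt10b and Wnt1 are placed 10.7 kb apart on chromosome X by the table and on chromosome 7 by RefSeq GRCr8, and neither exceeded 0.0123 FPKM in either group. These pairs were looked at after their values were seen, and their directions are a description only.

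Promoters of the ligands that differed in each direction are shown with that of Axin2, a standard readout of beta-catenin signalling, to let their composition be compared. Each runs from 250 bases before to 50 bases after the gene start, 5′ to 3′ on the gene's strand, and comes from RefSeq on build GRCr8. Capitals mark CTTTGA, the core that Tcf and Lef factors bind, and GGGCGG, the core of the GC box, each on either strand (TCAAAG and CCGCCC) and with overlapping copies of one motif counted. The intervals are chr5:154797200-154797499 (plus strand) for Wnt4, chr9:83778302-83778601 (plus) for Wnt6, chr1:162549110-162549409 (plus) for Wnt11, chr10:89157016-89157315 (minus) for Wnt9b, chr10:89179974-89180273 (plus) for Wnt3 and chr10:94398535-94398834 (plus) for Axin2.
Wnt4: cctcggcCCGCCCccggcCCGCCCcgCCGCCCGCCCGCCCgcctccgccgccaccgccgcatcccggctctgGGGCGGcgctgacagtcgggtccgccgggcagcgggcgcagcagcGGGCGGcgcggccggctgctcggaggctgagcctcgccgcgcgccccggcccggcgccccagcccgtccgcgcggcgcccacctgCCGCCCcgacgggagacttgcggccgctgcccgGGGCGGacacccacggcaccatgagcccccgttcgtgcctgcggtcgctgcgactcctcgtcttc
Wnt6: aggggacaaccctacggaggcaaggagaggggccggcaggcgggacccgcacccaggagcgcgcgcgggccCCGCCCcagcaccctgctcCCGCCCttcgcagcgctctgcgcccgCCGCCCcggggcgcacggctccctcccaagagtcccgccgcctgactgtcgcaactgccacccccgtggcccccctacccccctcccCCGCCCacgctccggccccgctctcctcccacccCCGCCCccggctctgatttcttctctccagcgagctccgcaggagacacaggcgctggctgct
Wnt11: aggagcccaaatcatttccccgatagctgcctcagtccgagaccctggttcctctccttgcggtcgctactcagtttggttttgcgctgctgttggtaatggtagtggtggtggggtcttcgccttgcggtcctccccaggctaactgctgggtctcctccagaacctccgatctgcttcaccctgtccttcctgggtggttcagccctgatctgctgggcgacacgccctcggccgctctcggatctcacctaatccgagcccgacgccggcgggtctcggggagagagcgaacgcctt
Wnt9b: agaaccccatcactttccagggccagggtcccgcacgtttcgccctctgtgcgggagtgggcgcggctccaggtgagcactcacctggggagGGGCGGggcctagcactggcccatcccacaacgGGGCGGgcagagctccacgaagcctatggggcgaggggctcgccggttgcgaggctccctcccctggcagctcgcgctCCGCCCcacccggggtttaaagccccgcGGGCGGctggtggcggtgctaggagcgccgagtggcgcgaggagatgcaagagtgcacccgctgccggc
Wnt3: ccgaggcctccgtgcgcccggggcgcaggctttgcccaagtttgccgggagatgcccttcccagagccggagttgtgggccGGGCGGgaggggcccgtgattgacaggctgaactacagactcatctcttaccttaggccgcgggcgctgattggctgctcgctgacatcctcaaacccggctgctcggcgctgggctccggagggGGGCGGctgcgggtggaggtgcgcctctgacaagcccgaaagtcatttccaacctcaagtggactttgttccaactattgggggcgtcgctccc
Axin2: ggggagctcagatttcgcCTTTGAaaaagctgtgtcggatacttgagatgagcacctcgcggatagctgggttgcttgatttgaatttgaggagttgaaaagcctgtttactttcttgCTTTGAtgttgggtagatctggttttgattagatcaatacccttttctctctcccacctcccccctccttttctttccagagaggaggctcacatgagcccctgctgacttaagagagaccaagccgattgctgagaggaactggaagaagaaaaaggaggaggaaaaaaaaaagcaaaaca

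GC boxes stood in promoters of ligands from both directions: 9 matches for Wnt4, 5 for Wnt6, 4 for Wnt9b, 2 for Wnt3 and 0 for Wnt11. The Axin2 promoter held 2 copies of CTTTGA and no GC box. Promoters were found for 36 of the 52 genes. Of these, 22 (61.1%) held a GC box, against 33.1% of all 33469 promoters in the table, and their median GC content was 66.8% against 51.7%. The Tcf and Lef core was in 3 of the 36 (8.33%), those of Axin2, Dkk1 and Wnt8a, against 16.1% of all promoters, and the 2 motifs never overlapped. A match describes these letters only.

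The lipid-attaching enzyme and the R-spondins had low levels. Porcn, the enzyme that attaches the lipid to Wnt proteins, was at 2.45 FPKM in BDE-47 and 0.801 FPKM in vehicle testes, a difference of 0.94 and just under 2-fold on the scale used. Rspo1 was at 0.790 FPKM in BDE-47 and 0.0604 FPKM in vehicle testes. Rspo1, Rspo2 and Rspo3 all stayed under a mean of 1 FPKM and were not compared.

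Of the 9 Frizzled receptor genes, 6 were compared, 2 were higher (33.3%) and none was lower by 2-fold. These shares were near the 30.1% higher and 3.6% lower of all genes compared. Fzd1 was at 3.63 FPKM in BDE-47 and 0.138 FPKM in vehicle testes, a difference of 2.02. Fzd2 was at 3.61 FPKM in BDE-47 and 1.01 FPKM in vehicle testes (1.20), and within 2-fold after median-of-ratios scaling (0.86). By the loci used, which for Fzd4 and Fzd9 are read as opposite-strand, the most abundant Frizzled gene was a different one in each group. Fzd4, also known as the Norrin receptor, led in the BDE-47 testes with 8.34 FPKM, against 5.03 FPKM in vehicle testes, while Fzd9 led in the vehicle testes, with 5.21 FPKM in BDE-47 and 9.65 FPKM in vehicle. Fzd3, at 6.96 FPKM in BDE-47 and 4.92 FPKM in vehicle, and Fzd6, at 5.31 FPKM in BDE-47 and 2.89 FPKM in vehicle, had higher values in BDE-47. With the own-strand loci of Fzd4 and Fzd9, Fzd3 has the highest level in both groups. Fzd3 had no fixed direction across scalings.

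The co-receptors and the R-spondin receptors were less even. Lgr4, a receptor of R-spondins, was at 15.2 FPKM in BDE-47 and 3.23 FPKM in vehicle testes, a difference of 1.94. Its relative Lgr5, known as a stem cell marker of the gut, was at 3.20 FPKM in BDE-47 and 3.63 FPKM in vehicle testes (-0.14). The related receptors thus had equal levels to within 1 FPKM in the vehicle testes and very different ones in the BDE-47 testes. Lrp6 was at 5.17 FPKM in BDE-47 and 1.87 FPKM in vehicle testes (1.11, and 0.72 after median-of-ratios scaling). Lrp5 was at 2.25 FPKM in BDE-47 and 1.59 FPKM in vehicle testes, with no fixed direction across scalings.

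The most abundant of all 52 genes in both groups was an antagonist, Wif1, which binds Wnt proteins outside the cell. It was at 66.3 FPKM in BDE-47 and 58.5 FPKM in vehicle testes, a difference of 0.18 that turned to -0.33 after median-of-ratios scaling. Sfrp1 was at 5.17 FPKM in BDE-47 and 0.441 FPKM in vehicle testes (2.1), and its relative Sfrp2 at 1.12 FPKM in BDE-47 and 2.48 FPKM in vehicle (-0.72). The pair of related antagonists thus had values in opposite directions, under every scaling used. Dkk3, a divergent Dkk gene, was at 5.90 FPKM in BDE-47 and 1.27 FPKM in vehicle testes (1.61). Dkk4 was at 7.62 FPKM in BDE-47 and 2.66 FPKM in vehicle testes (1.24, and 0.82 after median-of-ratios scaling), in an interval shared with the DNA polymerase gene Polb, at 89.3 FPKM in BDE-47 and 97.7 FPKM in vehicle. Both Dkk1 loci were listed at 0 in both groups, which can be a failed estimate.

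None of the 4 compared Dishevelled and Axin genes passed 2-fold as deposited, beside 30.1% higher and 3.6% lower of all genes compared. Dvl1, the most abundant Dishevelled gene, was at 21.1 FPKM in BDE-47 and 33.1 FPKM in vehicle testes (-0.63, and -1.13 after median-of-ratios scaling). Dvl2 was at 6.02 FPKM in BDE-47 and 4.59 FPKM in vehicle testes, and Dvl3 at 6.23 FPKM in BDE-47 and 3.86 FPKM in vehicle; neither had a direction that held across scalings. Dvl2 shares its interval with Acadvl, an enzyme gene of fatty acid oxidation. Axin1, the scaffold of the destruction complex, was at 18.6 FPKM in BDE-47 and 22.9 FPKM in vehicle testes (-0.29), in an interval with 4 unnamed loci. Its inducible relative Axin2 stayed under a mean of 1 FPKM, at 0.774 FPKM in BDE-47 and 0.514 FPKM in vehicle testes.

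Lef1, a nuclear partner of beta-catenin, was the single gene lower by 2-fold, at 15.5 FPKM in BDE-47 and 37.5 FPKM in vehicle testes, a difference of -1.23. Its partner locus lay within 2-fold. The Lef1 interval holds 8 loci besides the one used, and only the partner among them carries a gene name. How reads were divided among these loci is not given. Tcf7l2 was at 2.73 FPKM in BDE-47 and 1.71 FPKM in vehicle testes, and Tcf7l1 at 1.29 FPKM in BDE-47 and 0.824 FPKM in vehicle. Neither Tcf gene had a fixed direction across scalings. The Tcf7l1 interval likewise holds 7 loci besides the one used. Lef1 thus exceeded the 2 Tcf genes in both groups, by less in the BDE-47 testes.

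**Figure D2:**
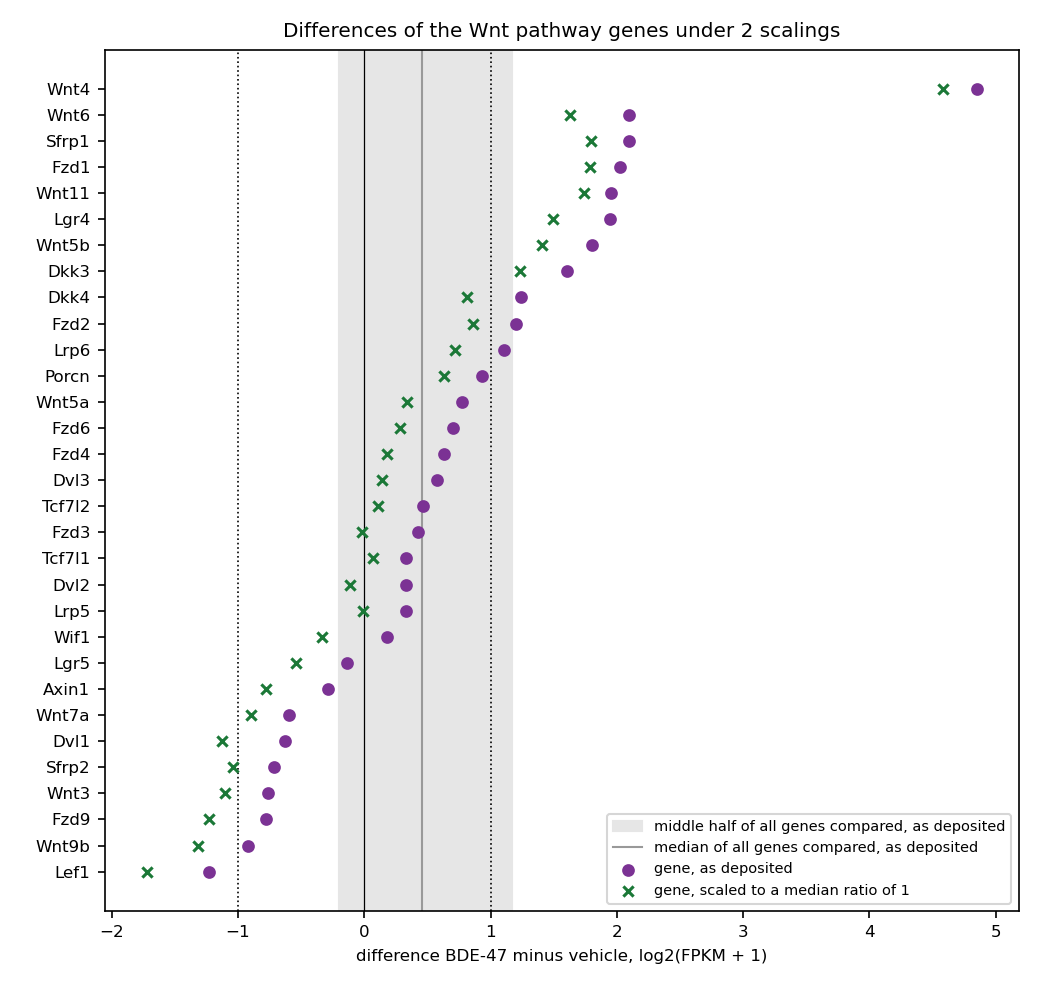
Differences of the 31 compared genes (BDE-47 minus vehicle, log2(FPKM + 1)), as deposited (points) and after scaling the median ratio of all compared genes to 1 (crosses). The grey band spans the quartiles of all 11567 genes, -0.20 and 1.17, and dotted lines mark 2-fold; Wnt4 lies far to the right, and Lef1 has the lowest value under both scalings.

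The remaining 21 genes had a mean under 1 FPKM. The value was higher in BDE-47 for 13 of them, lower for 7 and listed at 0 in both groups for Dkk1. The same shares over all genes under 1 FPKM were not counted. Only 7 reached 0.5 FPKM in either group. Besides Wnt10a, Rspo1 and Axin2 these were Wnt2b (0.901 FPKM in BDE-47 and 0.142 FPKM in vehicle), Dkk2 (0.824 FPKM in BDE-47 and 0.102 FPKM in vehicle), Fzd5 (0.599 FPKM in BDE-47 and 0.130 FPKM in vehicle) and Wnt8b (0.624 FPKM in BDE-47 and 1.00 FPKM in vehicle). A further 8, Dkk1 included, stayed under 0.1 FPKM in both groups.

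Some genes are listed under a pair of loci, and for these the difference depended on which locus was read. Of the 52 genes, 12 have 2 loci with the same name and bounds, and the locus with the higher mean was used. The table gives no strand. Its locus numbers, however, rise along each chromosome in 2 or 3 runs, and for 90.4% of 9035 genes with a single locus the first run went with the plus strand and the second with the minus strand of RefSeq on build GRCr8. A strand read from these numbers is therefore uncertain for any single gene. By this reading 30 of the 36 genes with a known strand were taken from a locus on their own strand, and 6 from one on the opposite strand: Fzd4, Fzd5, Fzd9, Lef1, Tcf7l1 and Wnt7a.

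For the Wnt6 pair, the own-strand locus was the one at 26.5 FPKM in BDE-47 and 5.43 FPKM in vehicle testes. Its opposite-strand partner was at 8.06 FPKM in BDE-47 and 10.3 FPKM in vehicle testes (-0.32). In the vehicle testes the partner was thus the more abundant of the 2. Wnt11 showed the same arrangement, with the partner at 0.611 FPKM in BDE-47 and 1.39 FPKM in vehicle testes (-0.57). Lgr4 differed at its own-strand locus, the opposite-strand locus being at 0.497 FPKM in BDE-47 and 0.493 FPKM in vehicle testes.

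Lef1 had lower values at both loci: the own-strand locus was at 13.8 FPKM in BDE-47 and 21.3 FPKM in vehicle testes (-0.59), within 2-fold, and the locus at 15.5 FPKM in BDE-47 and 37.5 FPKM in vehicle was on the opposite strand by this reading. The lower call of Lef1 thus rests on the locus read as opposite-strand. Fzd9 had an own-strand locus at 0.768 FPKM in BDE-47 and 0.250 FPKM in vehicle testes (0.50), against the value of -0.78 for the locus used. Fzd4 had one at 1.39 FPKM in BDE-47 and 1.29 FPKM in vehicle testes (0.06), so neither abundant Frizzled value can be assigned to the receptor transcript alone. Dkk4 has a second locus at 4.82 FPKM in BDE-47 and 3.10 FPKM in vehicle testes (0.51), with the strand not known. In 4 of the 12 pairs, those of Wnt6, Wnt11, Fzd9 and Lrp5, the 2 loci differed in opposite directions. With no strand in the table, transcripts of a gene and of an antisense partner cannot be told apart at such loci.

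**Figure D3:**
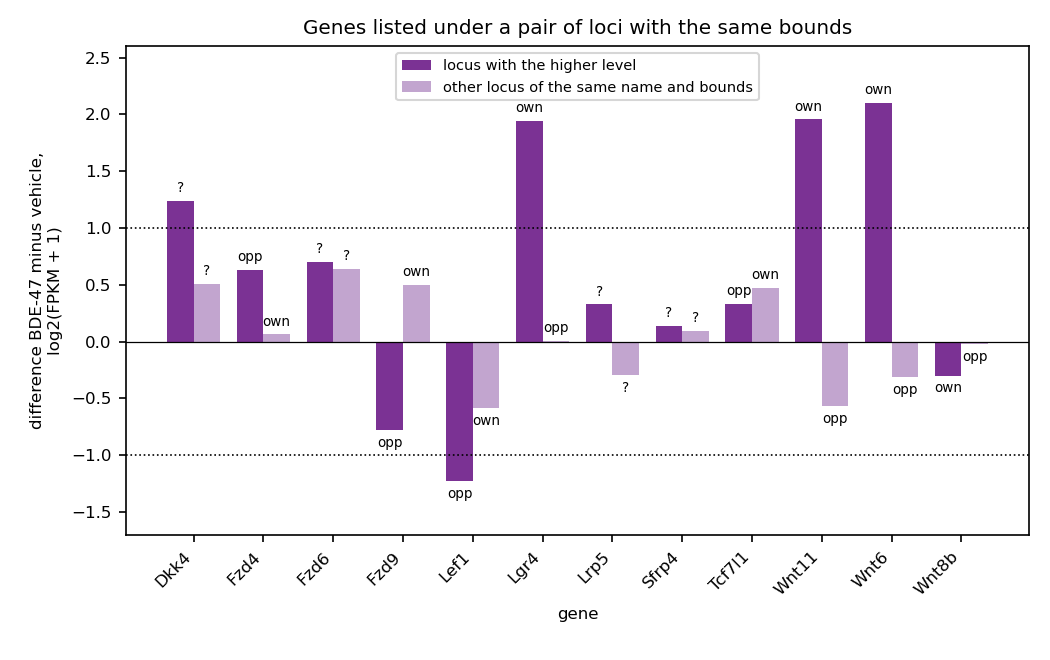
Differences (BDE-47 minus vehicle, log2(FPKM + 1)) of the 12 genes listed under 2 loci with the same bounds, with the locus of higher level in dark bars and its partner in light bars. Letters give the strand read from the locus numbers (own, opp for opposite, ? for not known); the dark Wnt6, Wnt11 and Lgr4 bars are own-strand and near 2, and their partners are near or under 0.

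Other genes of the pathway were taken from 5 lists chosen with earlier results of these data known. Of their 86 compared genes, 31 were higher and 2 were lower, beside 30.1% higher and 3.6% lower of all genes, and the median was 0.69 beside 0.45 for all genes. These counts moved with scaling, so those after median-of-ratios scaling over compared genes (19.3% of all genes higher, 14.5% lower) and over all loci (14.9% higher, 21.7% lower) are given for each list. Among co-receptors, secretion genes and extracellular modulators, 5 of 10 were higher, none was lower and the median was 0.88. The rescaled counts were 3 higher and 0 lower over compared genes, and 2 higher and 1 lower over all loci. Wls, the carrier that takes Wnt proteins to the cell surface, was at 53.4 FPKM in BDE-47 and 6.59 FPKM in vehicle testes (2.84). Ryk, a Wnt receptor of the kinase family, was at 32.7 FPKM in BDE-47 and 11.5 FPKM in vehicle testes. Serpinf1 was at 4.41 FPKM in BDE-47 and 0.737 FPKM in vehicle, and Tspan12, a partner of Fzd4, at 2.25 FPKM in BDE-47 and 0.291 FPKM in vehicle. Serpinf1 and Tspan12 were thus compared only because of their BDE-47 values. The 3 genes still higher after scaling over compared genes include both. Wls thus differed far more than Porcn, the other gene of Wnt release.

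In the destruction complex and its regulators, 4 of 19 genes were higher and 1 lower, with a median of 0.41. The higher ones were Ppp2ca, a phosphatase subunit (62.2 FPKM in BDE-47 and 18.1 FPKM in vehicle), Fbxw11, of the ubiquitin ligase for beta-catenin (13.7 FPKM in BDE-47 and 3.68 FPKM in vehicle), and the casein kinase genes Csnk1g3 (15.7 FPKM in BDE-47 and 4.66 FPKM in vehicle) and Csnk1e (4.79 FPKM in BDE-47 and 1.39 FPKM in vehicle). The lower one, named after its value was seen, was Csnk1g2, at 146 FPKM in BDE-47 and 311 FPKM in vehicle testes. Over compared genes 3 were higher and 4 lower, with a median of -0.11, and over all loci 0 were higher and 6 lower, with a median of -0.38. Among beta-catenin and its nuclear partners the median was 0.48, 4 of 18 were higher and none was lower. Rescaled counts were 2 higher and 1 lower over compared genes, and 1 higher and 2 lower over all loci. Ctnnb1, which encodes beta-catenin, was at 32.7 FPKM in BDE-47 and 14.4 FPKM in vehicle testes (1.13, and 0.63 after median-of-ratios scaling). The others were Tbl1x (12.2 FPKM in BDE-47 and 2.43 FPKM in vehicle), the corepressor gene Tle4 (9.45 FPKM in BDE-47 and 3.10 FPKM in vehicle) and the merged locus of Pygo2 and Shc1 (16.1 FPKM in BDE-47 and 4.35 FPKM in vehicle).

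Of 13 genes used as readouts of beta-catenin signalling, 7 were higher, and the median was 1.10 with none lower. Rescaling gave 6 higher and 1 lower over compared genes, and 5 higher and 1 lower over all loci. With a minimum mean of 5 FPKM only 1 was higher and the median was 0.31. Of the higher genes, Myc, Ccnd1, Cd44, Mmp7 and Fst were under 1 FPKM in vehicle testes. They passed the filter only through their BDE-47 values. Sox9, also higher, at 7.01 FPKM in BDE-47 and 1.89 FPKM in vehicle testes, is counted among the higher Sertoli markers as well. Id2 was at 19.3 FPKM in BDE-47 and 2.27 FPKM in vehicle testes, Myc at 4.69 FPKM in BDE-47 and 0.157 FPKM in vehicle, the cyclin gene Ccnd1 at 4.56 FPKM in BDE-47 and 0.712 FPKM in vehicle and the protease gene Mmp7 at 2.06 FPKM in BDE-47 and 0.0878 FPKM in vehicle. These genes answer to many signals besides Wnt, and Axin2, the readout most tied to the pathway, stayed under a mean of 1 FPKM and was not compared. In the planar polarity and calcium branch 11 of 26 were higher and 1 lower, with a median of 0.95. Rescaling gave 7 higher and 2 lower (median 0.49) over compared genes, and 4 higher and 4 lower (median 0.25) over all loci. Rac1 was at 64.4 FPKM in BDE-47 and 16.3 FPKM in vehicle testes, Rock2 at 13.4 FPKM in BDE-47 and 3.32 FPKM in vehicle, Prickle3 at 2.83 FPKM in BDE-47 and 0.227 FPKM in vehicle and the calcineurin gene Ppp3r1 at 43.7 FPKM in BDE-47 and 13.7 FPKM in vehicle. Prickle3 was compared only because of its BDE-47 value, as was Vangl1, also higher, at 2.79 FPKM in BDE-47 and 0.401 FPKM in vehicle testes. The lower gene, named after its value was seen, was Ankrd6, at 6.54 FPKM in BDE-47 and 14.6 FPKM in vehicle testes.

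**Figure D4:**
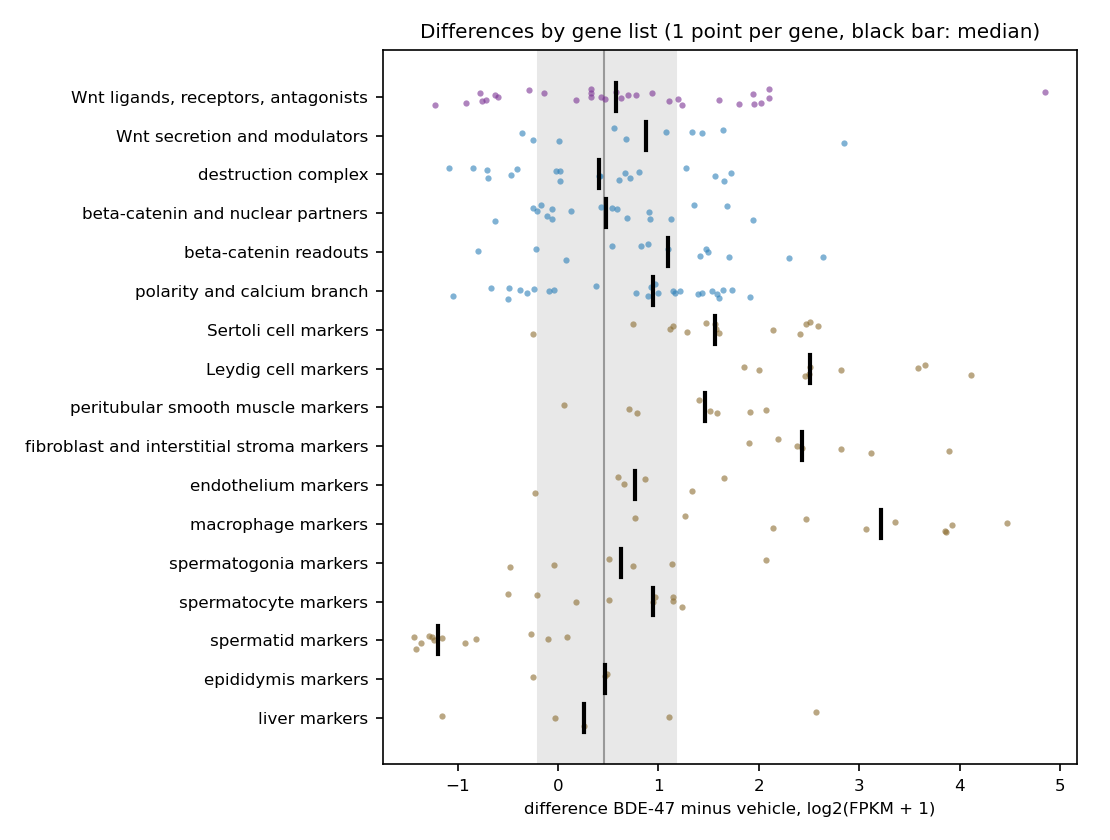
Differences (BDE-47 minus vehicle, log2(FPKM + 1)) of the compared genes in each list, 1 point per gene with the median as a black bar, and the quartiles of all genes as a grey band. The Wnt ligands, receptors and antagonists have a median of 0.57, close to the 0.45 of all genes, while the Leydig cell and macrophage markers have medians of 2.51 and 3.21 and the spermatid markers one of -1.20.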

How the data were processed

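Testis poly(A) RNA of 10 libraries, 5 per group, was sequenced after a stranded kit, per the labels' protocols. Per the submitters' processing notes, TopHat2 and Cuffdiff 2.1.1 were used with build rn5. For the annotation, the strand setting and the way libraries were combined, the step is not given in the sources used here. In the deposited table the authors give FPKM values on the log2 scale, 1 per group and locus, and their log2 ratio, BDE-47 over control. A log2 value of -10 is the table's floor and was read as listed at 0. The direction rests on the column names.

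Of 94827 loci, 20638 carry a name. For each name (16915) and symbol (17274) the locus with the highest mean was kept, and means of at least 1 FPKM were compared (11567 names). A gene under 1 FPKM in 1 group could pass this filter through the other group alone. Differences are BDE-47 minus vehicle on log2(FPKM + 1), which understates differences of low genes. The design planned limma for values per library; with group values only, no test was run, and the 2-fold rule took its place. Genes were named by rule: all compared ones, those reaching 0.5 FPKM, and in each list up to 4 past 2-fold. The members and lists were chosen with earlier results of these data known. All 52 symbols were found in RefSeq GRCr8, which gave promoters and strands. Paralogous genes share reads. Alternatives were pseudocounts, filters, scalings and the choice of locus. Python 3.11.15, numpy 2.4.6 and pandas 2.3.3 were used.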

Additional observations from a re-analysis of the deposited data

How the results depend on the processing

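No library or replicate could be left out, since the table holds group values only. No paired analysis was possible because the columns carry no replicate numbers. The 11 higher and 1 lower genes came to 12 and 4 with a pseudocount of 0.1, 12 and 5 with 0.01, and 4 and 1 with a minimum mean of 5 FPKM, where 14 genes were left. They were 8 and 8 with median-of-ratios scaling over all loci, 8 and 6 over the compared genes (added after seeing the data), 8 and 5 after quantile normalization and 10 and 2 after rescaling without the most abundant loci. Summing all loci of a symbol gave 9 higher genes, with Wnt11 (0.95) and Dkk4 (0.99) within 2-fold, and 0 lower. So did the other locus of each pair, which left 7 higher, and the own-strand locus. Both were added after seeing the data. The share of all genes was counted only for the scalings, so the counts under other pseudocounts, filters and loci have no background beside them. In the same order of settings the median of 0.57 was 0.68, 0.69, 0.50, -0.071, 0.14, 0.075 and 0.41; it was 0.33 without a filter and 0.38 with the other locus.

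With the other locus the differences of Wnt11 and Wnt6 turned to -0.57 and -0.32. The pathway lists (31 higher, 2 lower, median 0.69) had 19 higher at 5 FPKM, 12 higher and 14 lower with scaling over all loci, 8 lower over compared genes, 6 lower after quantile normalization and 1 lower with summed loci. Their median was 0.91 and 0.93 with pseudocounts of 0.1 and 0.01, 0.43 without a filter, 0.42 at 5 FPKM, 0.11 with scaling over all loci, 0.31 both over compared genes and after quantile normalization, and 0.54 without the most abundant loci. The destruction complex median turned to -0.38 and -0.11 under the median-of-ratios scalings, and that of nuclear partners to -0.061 with scaling over all loci and to -0.060 with the 5 FPKM filter. The cause was not tested. No gene among the 31 stood in a merged locus. Leaving out merged loci therefore could not change their counts or directions and says nothing about them. In the pathway lists it left 79 compared genes in place of 86, with 29 higher, 2 lower and a median of 0.69.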

Other observations

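Of all genes in the table with several loci and a known strand, 67.1% of 2031 had their highest locus on their own strand by the locus numbers, against 90.4% of 9035 genes with 1 locus. Of the 8 Wnt pathway genes with a known strand and 2 loci of the same bounds, 4 were on their own strand. The 67.1% also covers genes whose loci have different bounds, so the 2 shares are not over like sets. Dkk1 and Fzd8, each with 2 loci of different bounds, were taken from their own strand and are not among the 8.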
